A study of Mus musculus with 3 samples.

Results

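Single thymic epithelial cells (TECs) that held transcripts of both the chemokine gene Ccl21a and the keratin gene Krt5 were described in 2 pools of cultured mouse thymus cells. They were chosen by the raw counts of unique molecular identifiers (UMIs, each standing for 1 captured transcript) in their barcode. A member had at least 5 UMIs of Ccl21a, at least 5 of Krt5 and at least 1 of Epcam, a surface protein of epithelial cells. It had at most 2 UMIs of Psmb11 (a cortical proteasome subunit), 1 of Aire (a medullary transcription regulator), 9 of Aqp3 (a water channel), 1 of Cd3e (T cells) and 1 of Ptprc (all blood cells). The rule kept 442 of 9349 cells assigned to a pool, and of the 3012 of these with an Epcam UMI (Epcam cells). Of the members, 331 came from the ORFTOC pool and 111 from the FTOC pool.

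The study asked whether TECs grown as organoids can stand in for the TECs of a fetal thymus. In an ORFTOC (organoid reaggregate fetal thymic organ culture), organoid-grown TECs were pelleted with fetal thymus cells depleted of EpCAM-positive cells and with mouse embryonic fibroblasts. An FTOC was an intact lobe of fetal thymus cultured in the same medium, which held the growth factor FGF7. Both were wild type and were dissociated on culture day 13. The paper states that the compound thiazovivin was added to this medium for the first 2 days. The organoid cultures had received it at their start as well. Organoid TECs had been taken from thymi of a later embryonic stage than the FTOC lobes and had grown in a hydrogel before reaggregation. Epithelial origin, reaggregation, embryonic stage and added fibroblasts therefore all differ between the pools and cannot be told apart. Each pool held 2 mixed cultures under 1 hashtag (an antibody with an oligonucleotide barcode) and is 1 sample. No test between the pools was possible, and every 95% interval below covers counting error only.

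Medullary TECs line the inner zone of the thymus, where thymocytes that have passed positive selection are screened for self-reactivity. Ccl21a encodes a ligand of the receptor CCR7, which draws these thymocytes from the cortex into the medulla, and Krt5 and Krt14 encode a keratin pair of basal epithelial layers. Medullary cells that make CCL21 are regarded as a type of their own beside the cells that express Aire, and their growth depends on signals from thymocytes and lymphoid tissue inducer cells through receptors such as RANK and LTβR.

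The reference sequence before the start of 4 genes is shown because Ccl21a and Krt5 chose the cells and because Ccl19 and Krt14 were among the genes with the highest levels in members relative to other Epcam cells in both pools. Each line gives the 150 bases before the RefSeq transcription start (GRCm38.p6), all on the minus strand and written 5′ to 3′. The windows were chr4:42773992-42774141 for Ccl21a, chr4:42756366-42756515 for Ccl19, chr15:101712906-101713055 for Krt5 and chr11:100206031-100206180 for Krt14. Capitals mark the letters ATAAA (the core of a TATA box, searched on the gene's strand), CAGCTG (an E-box) and an NF-κB motif of GGG, any 2 bases and TTTCC, the latter pair searched on both strands.

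Ccl21a: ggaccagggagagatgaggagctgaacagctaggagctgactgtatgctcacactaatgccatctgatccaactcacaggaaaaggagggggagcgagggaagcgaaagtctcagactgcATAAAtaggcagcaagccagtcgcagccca

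Ccl19: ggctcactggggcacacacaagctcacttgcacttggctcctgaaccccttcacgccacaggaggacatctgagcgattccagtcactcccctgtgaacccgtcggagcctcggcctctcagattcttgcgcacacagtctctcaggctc

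Krt5: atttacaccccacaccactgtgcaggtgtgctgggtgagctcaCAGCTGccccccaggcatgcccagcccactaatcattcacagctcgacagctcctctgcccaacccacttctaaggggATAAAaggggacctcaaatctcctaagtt

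Krt14: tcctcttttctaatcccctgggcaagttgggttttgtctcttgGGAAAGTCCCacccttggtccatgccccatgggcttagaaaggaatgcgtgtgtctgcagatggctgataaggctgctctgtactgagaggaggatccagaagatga

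The letters ATAAA lay at positions -30 to -26 of Ccl21a and -29 to -25 of Krt5, counted back from the start. CAGCTG was found at -107 to -102 of Krt5. In Krt14, the NF-κB motif was read on the opposite strand at -107 to -98, where the printed strand reads GGAAAGTCCC. None of the 3 motifs was in the Ccl19 window. Among the 32851 windows of this length in the table, 15.1% held ATAAA, 8.39% held CAGCTG and 0.925% held the NF-κB motif. A match describes the letters of the window and is not evidence of a bound site.

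All 4 genes given as markers of these cells were read in them. A member held a median of 25 Ccl21a UMIs in ORFTOC (range 5 to 107) and 20 in FTOC (5 to 81). For Krt5 the medians were 31 (5 to 600) and 26 (5 to 201). Krt14 and Krt17, which the rule did not use, had at least 1 UMI in 225 and 269 of the 331 ORFTOC members, and in 73 and 108 of the 111 FTOC members. The label of Ccl21a and Krt5 medullary cells was thus met by the named genes, while 106 ORFTOC and 38 FTOC members held no Krt14 UMI. The values of Ccl21a and Krt5 follow from the rule and are given as a description.

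**Figure D1:**
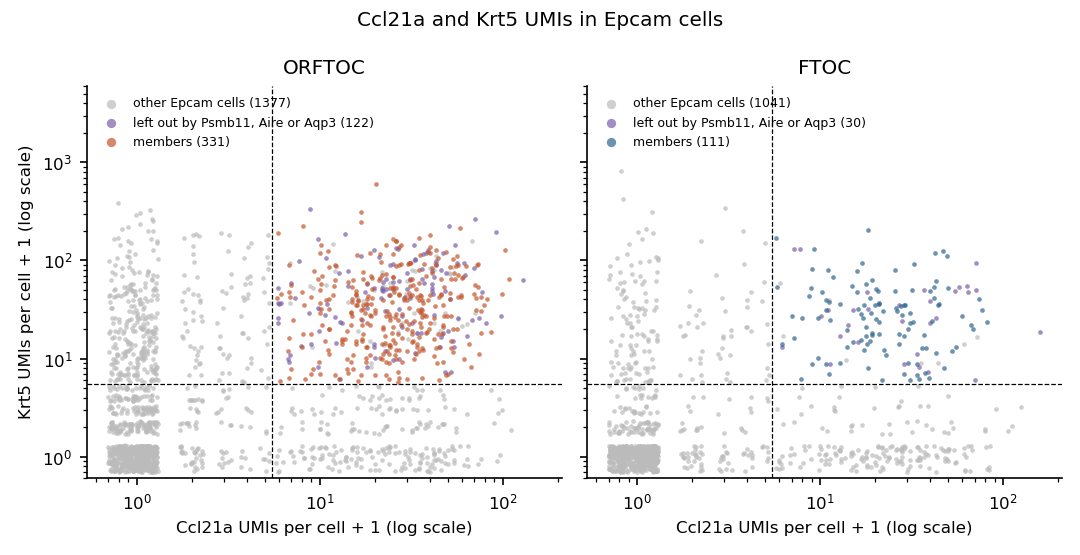
Each point is 1 Epcam cell of the ORFTOC pool (left) or the FTOC pool (right), with its Ccl21a UMIs plus 1 on the x axis and its Krt5 UMIs plus 1 on the y axis, both on log scales and with a small random shift so that equal counts do not overlap. Dashed lines mark the limits of 5 UMIs. The 331 and 111 members lie in the upper right field without a gap to their neighbours, mixed with the 122 and 30 cells that only the Psmb11, Aire or Aqp3 limits left out.

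The limits cut through a continuous range of counts. There were 18 members with 5 or 6 Ccl21a UMIs, and 27 cells with 3 or 4 met every other limit. For Krt5 these numbers were 30 and 28. In all 650 Epcam cells reached both minimum counts, 500 in ORFTOC and 150 in FTOC. The Psmb11 limit was passed by 85 of the ORFTOC and 4 of the FTOC cells, and the Aqp3 limit by 42 and 26. Both limits therefore removed unlike numbers from the pools, and the rule kept 66.2% of the ORFTOC (61.9 to 70.3) and 74% of the FTOC cells (66.2 to 80.8). Of the members, 213 held no UMI of Psmb11, Aire or Aqp3 at all.

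Members came from ORFTOC more often than the cells around them. The ORFTOC share was 74.9% of members (70.6 to 78.9), 58.3% of other Epcam cells (56.4 to 60.2) and 56.0% of all assigned cells (55.0 to 57.0). Members made up 18.1% of the Epcam cells of ORFTOC (16.4 to 19.9) and 9.39% of those of FTOC (7.79 to 11.2). Cells with at least 5 Krt5 UMIs but under 5 Ccl21a UMIs leaned the same way, with an ORFTOC share of 66.1% (61.6 to 70.5) of 455 cells. The ORFTOC share of the 380 cells with at least 5 Ccl21a UMIs but under 5 Krt5 UMIs was 54.2% (49.0 to 59.3), and that of the 283 cells with 10 or more Aqp3 UMIs was 30.0% (24.7 to 35.7). It was 46.85% (37.31 to 56.55) of 111 cells with at least 2 Aire UMIs. The 227 cells with at least 3 Psmb11 UMIs had a share of 81.5% (75.8 to 86.3), above that of members with overlapping intervals. A lean to ORFTOC was thus not particular to members. Hence the cells that met both minimum counts and the cells that met the Krt5 count alone had higher ORFTOC shares than the cells that met the Ccl21a count alone, with intervals that did not overlap.

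Sex-linked transcripts moved with the pools. Of the FTOC members, 94.6% held Xist UMIs and no UMI of Eif2s3y, Ddx3y, Kdm5d or Uty (88.6 to 98.0), and 0 of 111 held Y-linked UMIs without Xist, which allows a share of up to 2.70%. In ORFTOC these shares were 32.9% (27.9 to 38.3) and 46.2% (40.8 to 51.8). Among members with Xist and no Y-linked UMI, 109 from ORFTOC and 105 from FTOC, the ORFTOC share was 50.9%. The Epcam cells of this kind held 16.98% members in ORFTOC and 9.69% in FTOC, close to the values over all Epcam cells. Ratios within this subset are given beside the main results below.

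Depth hardly differed between the members of the pools, with medians of 12818 and 13111 UMIs and 3772 and 3891 genes per cell. Their UMIs summed to 4507320 and 1530081. Members could hold reads of neighbouring cell types, and 4 lists of markers were summed for this. The 15 thymocyte genes summed to 58.8 CPM (UMIs per 1000000 UMIs of the cells) in ORFTOC members and 75.8 in FTOC members, and the 10 macrophage genes to 41.5 and 28.1, with a median of 0 per cell for each list, which the limits on Cd3e and Ptprc in part set. In the profile of barcodes with at most 100 UMIs (ambient RNA) the same sums were 2634 and 1521. Scaled on the thymocyte and macrophage genes, ambient RNA accounted for 2.36% and 2.25% of the UMIs of members. The 10 mesenchymal genes summed to 322.6 and 32.7 CPM, with a median of 0 and a highest cell of 24159 CPM in ORFTOC and 218.2 in FTOC. For the 12 airway genes the sums were 2958 and 260.8, the medians 78.5 and 67.8, and the highest cells 195451 and 9463. A T cell receptor β contig, which the rule did not use, was found in 2.04% of members (0.935 to 3.83), 2.70% of other Epcam cells within the Cd3e and Ptprc limits (2.04 to 3.5) and 75.4% of 3225 thymocytes (73.8 to 76.9). Removal of likely doublets took 4 members from each pool.

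Keratins of the basal layer stood higher in members than in other Epcam cells, and the direction of the ratio between the pools differed from keratin to keratin. Krt14 (ENSMUSG00000045545), the usual partner of Krt5, stood at 800.0 CPM in ORFTOC members and 490.2 in FTOC members, against 280.3 and 104.9 in other Epcam cells. The log2 ratio of ORFTOC over FTOC members was 0.71 (0.59 to 0.82). Krt17 (ENSMUSG00000035557), a keratin of basal cells under stress or in appendages, went the opposite way at 1393 and 1885 CPM, a log2 ratio of -0.44 (-0.50 to -0.37). Krt15, a keratin of basal progenitors, stood at 148.4 and 176.5 CPM with a log2 ratio of -0.25 (-0.46 to -0.04). Krt8 and Krt18, which pair in simple epithelium and in cortical TECs, had log2 ratios of 0.51 and 0.56, and stood lower in members than in other Epcam cells in both pools, with log2 ratios of -0.31 and -0.26 in ORFTOC and -0.21 and -0.08 in FTOC. Both ORFTOC values turned with no upper limit on Psmb11, Aire and Aqp3, to 0.20 for Krt8 and 0.35 for Krt18, and the FTOC value of Krt18 was 0.08 with each cell weighted equally. Within members with Xist and no Y-linked UMI the ratios were 0.80 for Krt14, -0.53 for Krt17 and -0.29 for Krt15. Over the alternatives that were tried they ran from 0.48 to 0.80, from -0.57 to -0.29 and from -0.48 to -0.11.

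At a fixed depth the share of cells with a Krt17 UMI differed between the pools, while the intervals of the Krt14 share overlapped. When each cell was thinned to 5000 UMIs, which left 322 ORFTOC and 106 FTOC members and dropped 14 shallower ones, Krt14 was read in 57.8% (52.2 to 63.2) and 53.8% (43.8 to 63.5). Krt17 was read in 71.4% (66.2 to 76.3) and 90.6% (83.3 to 95.4). Without thinning the shares were 68.0% and 65.8% for Krt14, and 81.3% and 97.3% for Krt17. Thymocytes, which should lack both keratins, gave thinned shares of 0.186% and 0.456% for Krt14 and 1.49% and 0.683% for Krt17, at median depths of 8089 and 5216 UMIs before thinning. The combination of Krt14 and Krt17 was read in 47.2% (41.6 to 52.8) and 49.1% (39.2 to 59.0) of members, Krt17 without Krt14 in 24.2% (19.6 to 29.3) and 41.5% (32.0 to 51.5), and Krt14 without Krt17 in 10.6% (7.42 to 14.4) and 4.72% (1.55 to 10.7). Neither was read in 18.01% of ORFTOC members (13.97 to 22.65) and 4.72% of FTOC members (1.55 to 10.7). Thus the ORFTOC members held more cells in which Krt5 was read without either of these keratins.

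Among members Krt14 and Krt15 went together. The Spearman correlation of their thinned UMIs was 0.42 over 322 ORFTOC members and 0.33 over 106 FTOC members, which share the pool, the depth and the rule. Krt15 was read in 24.8% and 34.0% of thinned members, in 32.3% and 39.6% without thinning, and in 0 of 1074 and 0 of 878 thymocytes, which allows up to 0.279% and 0.342%. No other gene of the keratin list reached 50 CPM apart from Krt7, at 60.4 and 59.5 CPM. Of its 16 genes 7 reached that level in 1 of the pools, and none of the 7 differed 2-fold. Across all 3406 genes at this level, 2.38% were at least 2-fold higher in ORFTOC members and 0.528% at least 2-fold lower, with a median log2 ratio of -0.00.

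Set beside cells that met only 1 of the minimum counts, members lay nearer to the Ccl21a cells in some genes and nearer to the Krt5 cells in others. Unlike members, those cells could exceed the Psmb11, Aire and Aqp3 limits. Cxcl14, a chemokine of epithelial and fibroblast origin, stood at 407.3 CPM (388.9 to 426.4) in ORFTOC members and 420.9 (389.0 to 454.7) in FTOC members. In cells with Ccl21a alone it stood at 409.5 and 449.7 CPM, and in cells with Krt5 alone at 47.6 and 51.1. Fst, which encodes the activin and BMP antagonist follistatin, had 138.9 and 130.1 CPM in members, 136.5 and 148.9 with Ccl21a alone, and 34.2 and 31.1 with Krt5 alone. Trp63, the factor that maintains stratified epithelium, had 201.0 and 265.3 CPM in members, 234.4 and 291.6 with Ccl21a alone, and 90.9 and 118.5 with Krt5 alone. In each of these 3 genes and in both pools the level of members lay nearer to that of the Ccl21a cells.

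Keratins gave the opposite picture. Krt15 stood at 148.4 and 176.5 CPM in members, 102.1 and 101.8 with Krt5 alone, and 23.4 and 13.6 with Ccl21a alone. Krt14 stood at 800.0 and 490.2 CPM in members, 535.4 and 209.1 with Krt5 alone, and 289.3 and 133.1 with Ccl21a alone. For Krt17 the order depended on the pool: members had 1393 and 1885 CPM, cells with Krt5 alone 942.1 and 2312, and cells with Ccl21a alone 817.0 and 1111. Cells with 10 or more Aqp3 UMIs had the highest Krt14 and Krt15 levels of these sets in ORFTOC, at 1732 and 397.9 CPM, but only 92.3 and 61.1 CPM in FTOC. The sets were kept within the Cd3e and Ptprc limits, were cut by limits on single genes and can share cells. Cells with Krt5 or Ccl21a alone thus could include cells with high Psmb11, Aire or Aqp3, which members could not. Differences between the sets, and the part of such cells in them, were not tested.

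**Figure D2:**
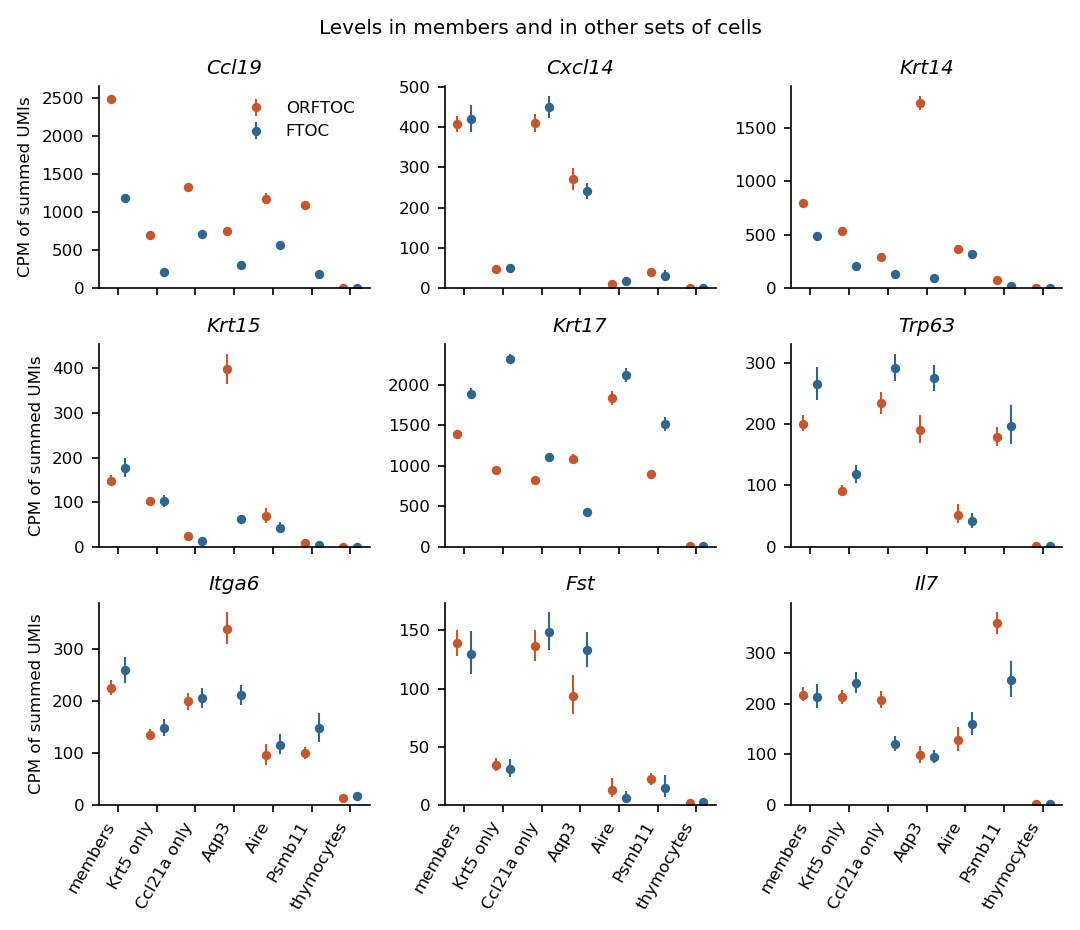
Each panel gives the level of 1 gene in CPM of summed UMIs (y axis, from 0) in members, in cells with at least 5 UMIs of Krt5 only or Ccl21a only, in cells over the Aqp3, Aire or Psmb11 limit, and in thymocytes (x axis), with ORFTOC and FTOC as separate points and 95% Poisson intervals as bars. Cxcl14, Fst and Trp63 in members sit near the Ccl21a cells, Krt15 and Krt14 nearer the Krt5 cells, and Ccl19 is highest in members of both pools, at 2487 and 1188 CPM.

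Ccl19, the second ligand of CCR7 and a neighbour of Ccl21a on chromosome 4, was the gene with the largest ratio to other Epcam cells when the lower of the values of both pools was ranked, among genes with 100 CPM in the members of both. It stood at 2487 CPM in ORFTOC members (2441 to 2533) and 1188 in FTOC members (1134 to 1244), against 664.2 and 302.9 in other Epcam cells. Cells with Ccl21a alone had 1334 and 713.6 CPM, cells with Krt5 alone 703.1 and 212.3, and thymocytes 9.42 and 8.68. The log2 ratio of ORFTOC over FTOC members was 1.07 (0.99 to 1.14), was 1.06 in members with Xist and no Y-linked UMI, and ran from 0.94 to 1.15 over all alternatives. The share of thinned members with a Ccl19 UMI was nonetheless alike, at 64.3% (58.8 to 69.5) and 63.2% (53.3 to 72.4), with 73.1% and 77.5% before thinning and 1.86% and 1.48% in thymocytes. The median was 4 Ccl19 UMIs per member in both pools before thinning, while the upper quartile was 34 in ORFTOC and 13 in FTOC. The difference thus lay in the members with the higher counts. In ORFTOC 17 cells held 41.4% of the Ccl19 UMIs, and without the top 5% of each pool the ratio was 1.10.

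The Ccl21a ratio itself was 0.21 (0.15 to 0.27), from 2112 and 1825 CPM, and stood at 0.26 in members with Xist and no Y-linked UMI. The annotation held a second Ccl21a entry with 49 UMIs in members, against 12312 in the entry used, and entries of Ccl21b and Ccl21c at 0. A second Ccl19 entry was at 0. These genes are near-identical copies, and reads that fit several of them may not have been counted.

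Other chemokines of members went both ways between the pools. Cxcl14 had a log2 ratio of -0.05 (-0.18 to 0.08), which ran from -0.70 to 0.35 over the alternatives. Cxcl10 and Cxcl9, interferon-induced ligands of CXCR3, stood lower in ORFTOC, at 704.4 against 1059 CPM and 78.8 against 134.6 CPM, with log2 ratios of -0.59 (-0.68 to -0.50) and -0.77 (-1.03 to -0.52). The Cxcl10 ratio was -0.31 in members with Xist and no Y-linked UMI. Ccl11, the eosinophil attractant eotaxin, was read at 361.4 CPM (344.1 to 379.4) in the ORFTOC cells against 27.4 (19.8 to 37.1) in those of FTOC, so that the log2 ratio was 3.72 (3.28 to 4.20). It was read in 30.4% of thinned ORFTOC members (25.4 to 35.8) and 6.60% of FTOC members (2.70 to 13.1), in 35.0% and 10.8% without thinning, and in 0.559% and 0.342% of thymocytes. The gene was thus spread over more of the ORFTOC members than of the FTOC members. In other Epcam cells Ccl11 stood at 185.1 and 21.1 CPM, so for this gene the pools differed outside the members as well. Fibroblasts also make Ccl11, and the sum of the mesenchymal list was higher in ORFTOC members. Whether fibroblast RNA had a part in the Ccl11 reads was not tested. Of the 19 chemokine genes listed 9 reached 50 CPM, of which Ccl19, Ccl11 and Ccl25 were at least 2-fold higher in ORFTOC and none was 2-fold lower, with a median log2 ratio of -0.05. Ccl11 and Ccl25 reached that level in ORFTOC alone. The shares over all genes tested were 2.38% higher and 0.528% lower.

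Receptors and transducers of the signals that expand the medulla differed little. Tnfrsf11a, which encodes RANK, stood at 61.2 and 47.7 CPM, a log2 ratio of 0.36 (-0.02 to 0.75). Ltbr, which encodes LTβR, stood at 93.8 and 98.0 CPM with a ratio of -0.06 (-0.34 to 0.22), and Relb, the transcription factor downstream of both, at 150.4 and 138.6 CPM with a ratio of 0.12 (-0.11 to 0.35). Of the 18 genes of this list 9 reached 50 CPM and none differed 2-fold, with a median of 0.08. Il7, a survival factor for early thymocytes, had 218.1 and 213.7 CPM in members and a ratio of 0.03 (-0.15 to 0.21). The intervals of these genes reach from -0.34 to 0.75, so they do not show that the levels were equal.

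Genes of antigen presentation were read at like levels in both pools. Cd74, the invariant chain of MHC class II, stood at 9242 and 8409 CPM with a log2 ratio of 0.14 (0.11 to 0.16), and H2-Aa at 3072 and 2797 CPM with a ratio of 0.14 (0.09 to 0.18). Of the 12 class II genes 10 reached 50 CPM with a median of 0.13, and only Ctsl, a protease of the class II pathway that is abundant in cortical TECs, was over 2-fold higher in ORFTOC, at 4303 and 2110 CPM, a ratio of 1.03 (0.97 to 1.08). Ctsl was concentrated, with 61.4% of thinned UMIs in the top 43 members, and its ratio was 0.91 without the top 5% of each pool. The 13 class I genes at this level had a median of -0.11. H2-K1, a class I heavy chain, stood at 4157 and 4816 CPM with a ratio of -0.21 (-0.25 to -0.17), and its partner B2m had a ratio of -0.24 (-0.29 to -0.19). Of these 13 class I genes 6 had an interval below 0 and none had one above it, and of the 10 class II genes 6 had one above 0 and none below. None of the class I genes differed 2-fold, and of the 18 interferon-induced genes only Ifi27 did, with a median of -0.04.

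Targets of BMP and TGF-β signalling were higher in ORFTOC members. Id1 and Id3 encode inhibitors of basic helix-loop-helix factors and are induced by BMP receptors. Id1 stood at 239.6 CPM in ORFTOC members against 86.3 in FTOC members, a log2 ratio of 1.47 (1.21 to 1.75), and Id3 at 316.4 and 109.8 CPM, a ratio of 1.53 (1.30 to 1.77). In other Epcam cells the pools lay closer together, at 159.5 and 145.7 CPM for Id1 and 210.4 and 194.8 CPM for Id3. On the log2 scale members stood at 0.59 over the other cells for both genes in ORFTOC, and at -0.76 and -0.83 in FTOC. Pmepa1, a feedback inhibitor of TGF-β signalling, stood at 190.8 and 49.7 CPM, a ratio of 1.94 (1.60 to 2.30). In other Epcam cells Pmepa1 stood at 163.1 and 31.6 CPM, so for this gene the pools differed outside the members as well. These 3 genes kept ratios over 1 under each alternative tried, with lowest values of 1.10 for Id1, 1.04 for Id3 and 1.44 for Pmepa1. In members with Xist and no Y-linked UMI the ratios were 1.76, 1.94 and 2.10.

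The reads of Id1 were spread over many cells. It was found in 42.5% of thinned ORFTOC members (37.1 to 48.1) and 17.9% of FTOC members (11.2 to 26.6), in 54.4% and 31.5% without thinning, and in 1.02% and 1.59% of thymocytes. Without the top 5% of cells of each pool its ratio was 2.02. Shares are not given for Id3 and Pmepa1, because thymocytes held them in 46.5% and 44.7% of thinned ORFTOC cells. Subtraction of the ambient profile left ratios of 1.55 for Id3 and 1.97 for Pmepa1.

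Other genes of this list lay closer together between the pools. Tgfbi, a secreted matrix protein induced by TGF-β, stood at 203.2 and 128.8 CPM, a ratio of 0.66 (0.43 to 0.89), and lay above other Epcam cells by 1.54 and 1.00. Skil, a repressor of SMAD signalling, had a ratio of 0.68 (0.29 to 1.10). The ligand gene Bmp7 stood at 106.3 and 117.6 CPM with a ratio of -0.15 (-0.40 to 0.11), and the antagonist gene Fst had one of 0.09 (-0.14 to 0.33). The ligand and the antagonist thus differed by less than counting error, while 3 of the 7 listed genes at 50 CPM, Id1, Id3 and Pmepa1, were at least 2-fold higher and none was 2-fold lower. Over all genes tested 2.38% were higher and 0.528% lower by this measure.

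**Figure D3:**
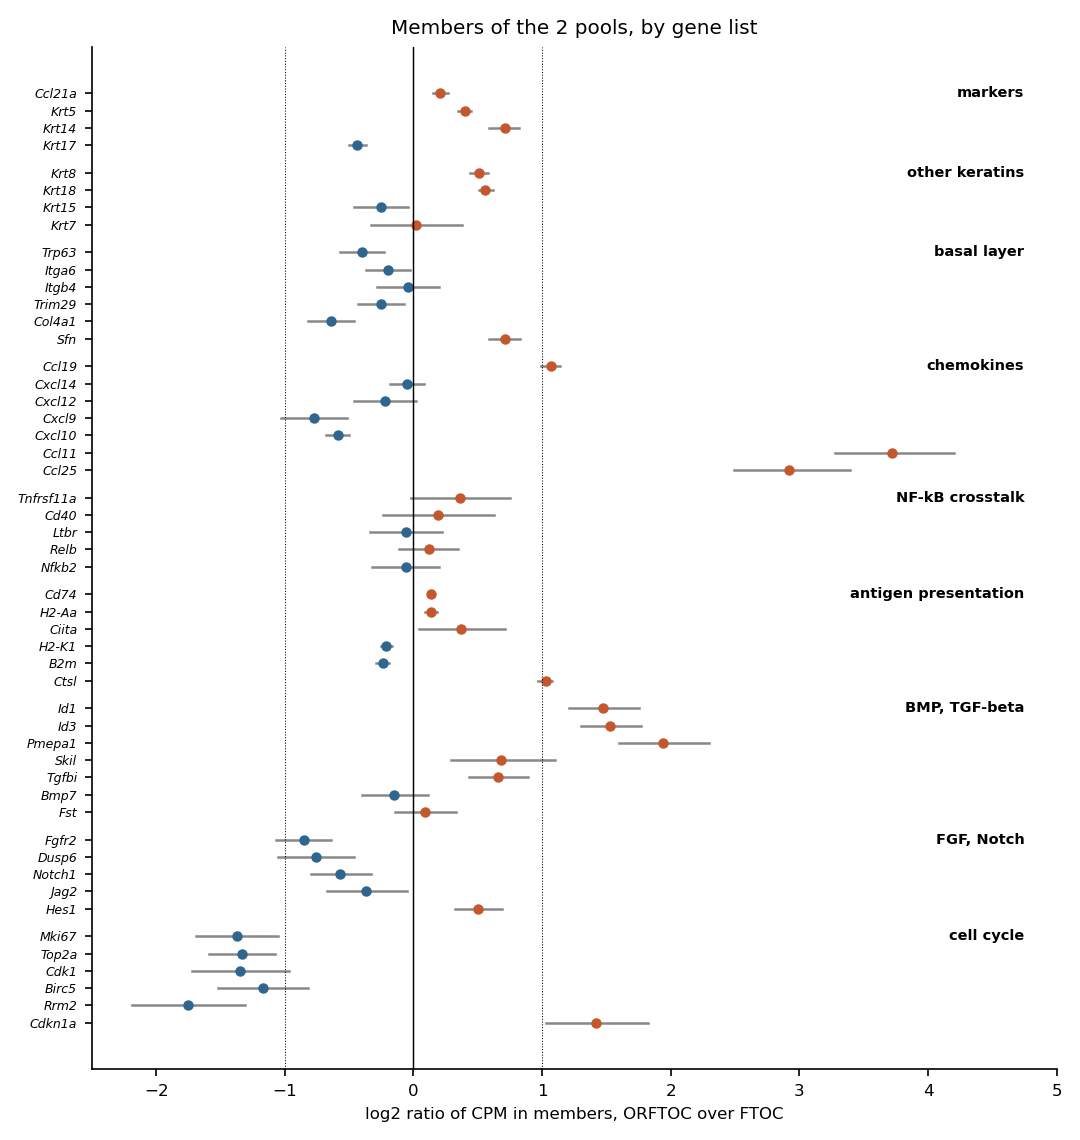
Points give the log2 ratio of CPM in ORFTOC members over FTOC members (x axis) for genes grouped by list (y axis), with 95% counting intervals as bars, dotted lines at 2-fold, and orange and blue points for ratios above and below 0. The 4 markers lie between -0.44 and 0.71, the antigen presentation gene Ctsl lies at 1.03, the BMP and TGF-β targets Id1, Id3 and Pmepa1 lie at 1.47 to 1.94, and the cell cycle genes Mki67, Top2a and Cdk1 lie at -1.37 to -1.33.

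The receptor genes Fgfr2 and Notch1 were lower in ORFTOC members. Other genes of the Notch list went both ways, while Dusp6 and Etv5 of the FGF genes were lower as well. Fgfr2, whose epithelial isoform binds FGF7, stood at 105.2 CPM in ORFTOC members against 190.2 in FTOC members, a log2 ratio of -0.85 (-1.07 to -0.64) that ran from -1.22 to -0.85 over the alternatives. In other Epcam cells Fgfr2 stood at 63.6 and 123.6 CPM, so for this gene the pools differed outside the members as well. Dusp6, a phosphatase induced by FGF signalling through ERK, had a ratio of -0.76 (-1.05 to -0.46). Etv5, listed with the FGF genes but under 50 CPM in both pools, had a ratio of -1.39, which ran from -2.00 to -0.87. Notch1 stood at 100.7 and 149.0 CPM, a ratio of -0.57 (-0.80 to -0.33), and Jag2, a Notch ligand, had one of -0.37 (-0.67 to -0.05). Hes1, a Notch target that other pathways also induce, went the opposite way at 274.7 and 194.1 CPM, a ratio of 0.50 (0.32 to 0.69). In the same lists Nrarp, a feedback inhibitor of Notch, had a ratio of 0.57 and Fzd2, a Wnt receptor, one of 0.76. Apart from Etv5, none of these differed 2-fold. Of the 13 Notch genes 5 reached 50 CPM, and of the 16 Wnt and FGF genes 6, with medians of -0.35 and -0.25. In each list 3 intervals lay below 0 and 2 above it. Summed over members, Notch1 and Jag2 were thus lower and Hes1 higher in ORFTOC, and whether the same cells carried both differences was not tested.

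Basal adhesion genes were read in the members of both pools, with differences under 2-fold. Itga6 and Itgb4 encode the integrin of hemidesmosomes and stood at 224.7 and 258.2 CPM and at 126.2 and 130.1 CPM, with log2 ratios of -0.20 (-0.37 to -0.03) and -0.04 (-0.28 to 0.20). They lay above other Epcam cells by 0.94 and 0.67 in ORFTOC and 0.77 and 0.82 in FTOC. Col4a1, a chain of basement membrane collagen, lay above them by 1.11 and 1.04 and was lower in ORFTOC members, at 164.4 and 256.8 CPM, a ratio of -0.64 (-0.82 to -0.46), and its partner Col4a2 had a ratio of -0.70 (-0.99 to -0.42). Trp63 had a ratio of -0.40 (-0.57 to -0.23). Sfn, the epithelial 14-3-3 protein, was higher at 708.4 and 432.7 CPM, a ratio of 0.71 (0.59 to 0.83). Of the 20 basal genes 16 reached 50 CPM and none differed 2-fold between the pools, with a median of 0.01. An interval above 0 was found for 4 of them and one below 0 for 6. Of the 16, Krt15 and Krt14 were at least 2-fold over other Epcam cells in both pools, as was Krt5, which the rule used. The background for both pools is 0.851% of all genes tested, and nothing is read from the comparison, since the rule used the same cells.

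Genes of DNA replication and mitosis were lower in ORFTOC members. Mki67, a protein of cycling nuclei, stood at 38.6 CPM in the ORFTOC cells against 99.99 in those of FTOC, a log2 ratio of -1.37 (-1.69 to -1.05). Top2a, which untangles chromosomes, stood at 61.5 and 154.9 CPM, a ratio of -1.33 (-1.59 to -1.08). Rrm2, a subunit of the enzyme that makes deoxynucleotides, stood at 18.6 and 62.7 CPM, a ratio of -1.75 (-2.19 to -1.31). Cdkn1a, the inhibitor p21, was higher at 109.8 and 41.2 CPM, a ratio of 1.42 (1.03 to 1.82). Of the 19 genes of the list 13 reached 50 CPM, with 6 at least 2-fold lower in ORFTOC and 1, Cdkn1a, at least 2-fold higher, a median of -0.90. Over all genes tested 0.528% were lower and 2.38% higher, with genes kept by the higher pool. In members with Xist and no Y-linked UMI the Mki67 ratio was -3.21 and that of Top2a -1.92.

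A small share of cells carried these reads. At least 3 thinned UMIs of Mki67, Top2a, Cdk1, Ccnb1, Ccnb2, Cenpf, Birc5 and Ube2c together were found in 6.83% of ORFTOC members (4.33 to 10.2) and 17.9% of FTOC members (11.2 to 26.6). In other Epcam cells the shares were 11.4% (9.70 to 13.3) and 12.0% (10.02 to 14.3). At full depth and 5 UMIs the shares of members were 8.76% and 18.02%. The order of members and other Epcam cells thus differed between the pools, which was not tested. In ORFTOC it also depended on the cells compared with, since against other Epcam cells within the Cd3e and Ptprc limits the log2 ratio of members was 0.37 for Mki67 and 0.68 for Top2a, in place of -0.80 and -0.59. The ambient profile held 1261 CPM of the 19 listed genes, against 919.2 and 1446 CPM in members. Its part in the counts was not tested beyond the subtraction, after which the Top2a ratio of the pools was -1.39.

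**Figure D4:**
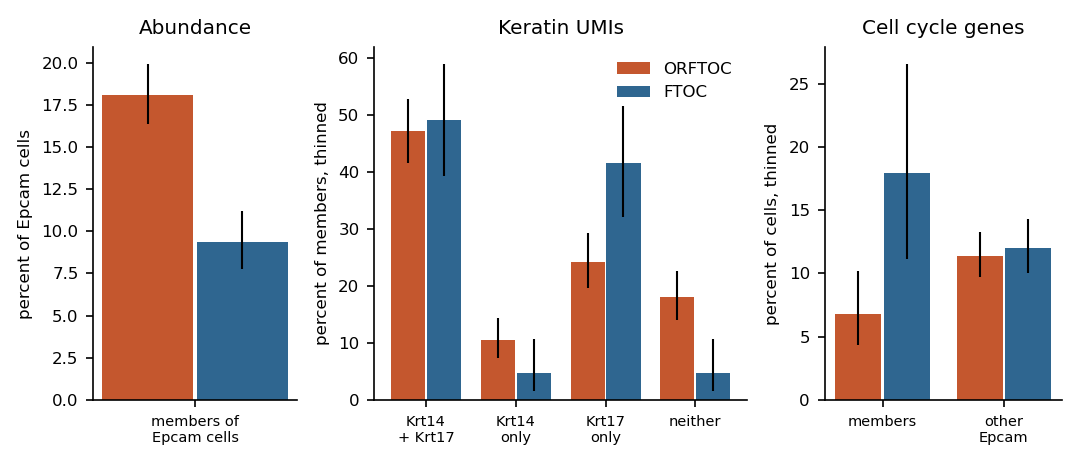
Bars start at 0 and give the percent of Epcam cells that are members (left), the percent of members with thinned UMIs of Krt14, Krt17, both or neither (middle), and the percent of members and other Epcam cells with at least 3 thinned UMIs of 8 cell cycle genes (right), for ORFTOC and FTOC, with 95% Clopper-Pearson intervals. Members are 18.1% and 9.39% of Epcam cells, Krt17 without Krt14 is read in 24.2% and 41.5% of members, and the cell cycle share is 6.83% and 17.9%.

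Genes of the cortical list were read in members despite the Psmb11 limit, with a higher sum in ORFTOC, as in other Epcam cells. In the members of both pools most of this sum came from 1 gene, Ctsl, whose levels are given above. The 13 listed genes summed to 6239 CPM in ORFTOC members and 2885 in FTOC members, with medians per cell of 1558 and 1372 CPM and 2308 CPM in the ambient profile. In other Epcam cells the sums were 9619 and 3324 CPM. Tbata, a gene of thymic stroma and testis, stood at 1038 and 169.9 CPM, a log2 ratio of 2.61 (2.43 to 2.80). It was read in 31.1% of thinned ORFTOC members (26.0 to 36.4) and 16.0% of FTOC members (9.63 to 24.4), in 37.5% and 24.3% without thinning, and in 4.28% and 3.19% of thymocytes. Ccl25, the ligand that draws progenitors into the thymus, stood at 218.3 and 28.8 CPM, a ratio of 2.92 (2.49 to 3.39). Both genes were also higher in the other Epcam cells of ORFTOC, at 2057 against 194.7 CPM for Tbata and 662.5 against 168 CPM for Ccl25. The thinned share of Ccl25 in FTOC members, 7.55% (3.32 to 14.3), lay at the level of thymocytes in that pool, 8.43%, and is read as background. In ORFTOC 17 cells held 90.2% of the Ccl25 UMIs of members, and the ratio without the top 5% was 1.03, while that of Tbata was 4.13. Foxn1, the master regulator of TECs, stood at 67.5 and 43.8 CPM with a ratio of 0.62 (0.24 to 1.03). Of the 7 cortical genes at 50 CPM, Ccl25, Tbata, Ctsl and Cd274 were at least 2-fold higher in ORFTOC and none lower. Over all genes tested these shares were 2.38% and 0.528%. Ccl25 and Cd274 reached 50 CPM in ORFTOC alone.

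The largest ratios between the pools rested on few cells. Cst6, Gp2, Col3a1 and Bpifa1 led the ranking of genes with 100 CPM in the higher pool, with log2 ratios of 6.1, 6.06, 4.80 and 4.13. In ORFTOC 17 members held 80.7% of the Cst6, 99.5% of the Gp2, 98.6% of the Col3a1 and 97.9% of the Bpifa1 UMIs. Without the top 5% of cells of each pool the ratio of Bpifa1, a secreted airway protein, was 1.61 and that of Cst6, a protease inhibitor of cornified epithelium, at least 3.79 with FTOC set to 3 UMIs. Gp2, a glycoprotein of M cells, and the fibroblast collagen Col3a1 were left with 3 and 7 ORFTOC UMIs and no FTOC UMI, too few for a ratio. For Ccl11, Pmepa1 and Engase, an enzyme that trims N-glycans, the ratios without these cells were 5.12, 2.23 and 2.80. The order of the pools thus did not rest on the highest cells for these 3 genes, although 215 ORFTOC members held no Ccl11 UMI and 181 held no Engase UMI. Each gene named in this paragraph was also higher in the other Epcam cells of ORFTOC, such as Bpifa1 at 17252 and 2947 CPM and Engase at 54.9 and 11.6 CPM.

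At the low end, Utf1 (log2 ratio -1.92), Hist1h2ap (-1.69), Hist1h2ae (-1.64) and Cck (-1.58) had the smallest ratios. Utf1, a chromatin protein of pluripotent cells, stood at 38.8 and 147.1 CPM, and Cck, the gut hormone cholecystokinin, at 54.8 and 164.0 CPM. Without the top 5% of cells the ratios were -2.90 and -2.99. Apoe, a lipid carrier, stood at 213.0 and 594.7 CPM with a ratio of -1.48 (-1.61 to -1.35), and its ratio without these cells was -1.65. Smoc2, a secreted matricellular protein, stood at 113.1 and 247.7 CPM with a ratio of -1.13 (-1.32 to -0.93) and -1.41 without them. These genes therefore kept their direction when the highest cells were left out. In other Epcam cells Utf1 stood at 47.4 and 163.8 CPM, Cck at 24.7 and 86.4, and Smoc2 at 40.25 and 71.8. For Utf1, Cck and Smoc2 the pools thus differed outside the members as well. Apoe was the higher in ORFTOC there, at 383.1 and 339.4 CPM. The 81 genes at least 2-fold higher and 18 lower became 57 and 14 when genes were kept by the mean of both pools in place of the higher pool.

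**Figure D5:**
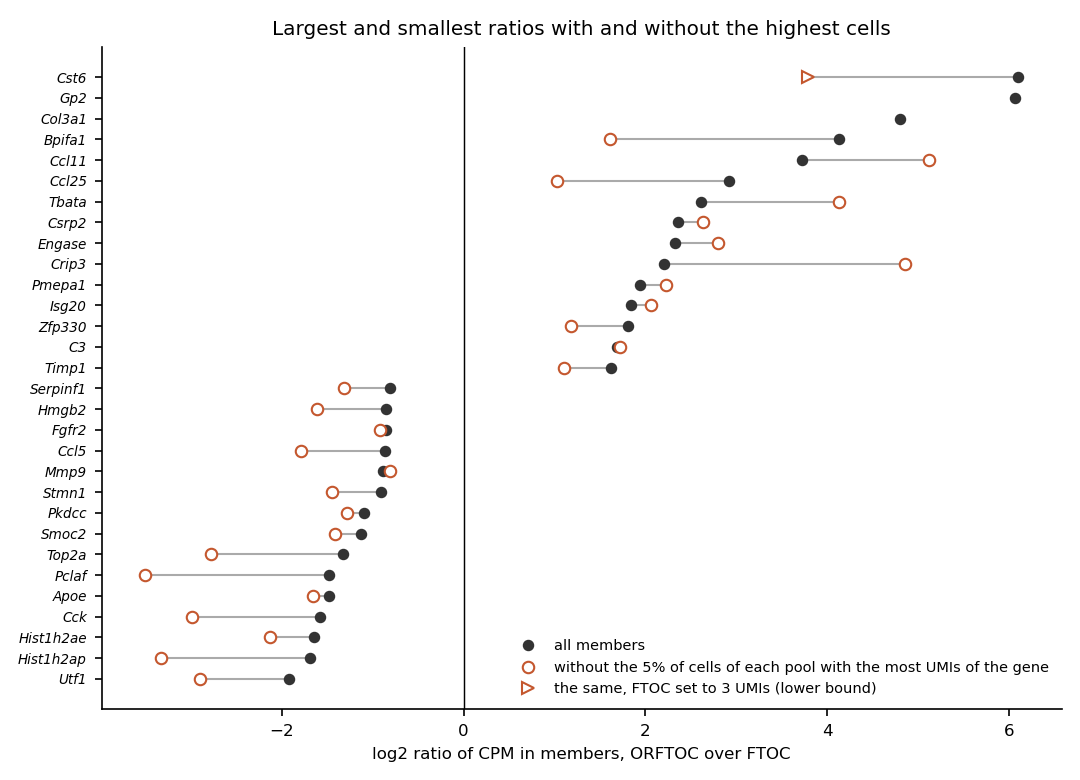
For the 15 largest and 15 smallest ratios the filled points give the log2 ratio of CPM in ORFTOC members over FTOC members (x axis), and the open points give it without the 5% of cells of each pool that held the most UMIs of the gene, with a triangle where FTOC was set to 3 UMIs. Bpifa1 moves from 4.13 to 1.61 and Ccl25 from 2.92 to 1.03, Gp2 and Col3a1 have no second value, and Ccl11 and Tbata move up to 5.12 and 4.13.

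Beside the marker genes, Htra1, Ch25h, Rgs5, Rgs4, S1pr3 and Rrad stood above other Epcam cells in both pools. Over all genes 29 were at least 2-fold above in both pools and 12 at least 2-fold below, 0.851% and 0.352% of those tested. Htra1, a secreted protease, stood at 124.7 and 155.5 CPM in members against 36.4 and 41.7 in other Epcam cells. Ch25h, the enzyme that makes 25-hydroxycholesterol, stood at 153.5 and 193.5 CPM against 55.7 and 58.1. The regulators of G protein signalling Rgs5 and Rgs4 stood at 490.8 and 707.2 CPM against 192.7 and 189.5, and at 537.8 and 222.9 CPM against 224.2 and 95.6. S1pr3, a receptor of sphingosine 1-phosphate, stood at 124.9 and 183.0 CPM against 54.5 and 79.99. Rgs5 and S1pr3 were lower in ORFTOC members, with log2 ratios of -0.53 (-0.63 to -0.42) and -0.55 (-0.76 to -0.34), and Rgs4 was higher with one of 1.27 (1.11 to 1.44). Rrad, a small GTPase that inhibits calcium channels, stood at 387.4 and 151.0 CPM against 144.6 and 53.8, with a ratio of 1.36 (1.16 to 1.56). Among the 12 genes at least 2-fold below in both pools were Wfdc2, Bpifa1, Gp2 and Pigr of airway or secretory epithelium, and Anxa1 and Vim. The rule chose members from the same counts, so these values describe the cells and were not tested.

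Members varied among themselves more in some genes than in others. Over both pools together, and over the 1554 genes with 100 CPM, the median ratio of variance to mean of thinned UMIs was 1.17. Bpifa1 had the largest, 502.9, with 99.1% of its thinned UMIs in the top 43 members. Lcn2, an iron-scavenging protein of inflamed epithelium, had a value of 65.0 and was read in 36.4% of members, and Sprr1a, a protein of the cornified envelope, one of 38.1 and was read in 25.5%. Ccl19 had a value of 39.9, with 59.6% of its UMIs in the top 43 members. Cxcl10 had one of 24.0. Other genes of this ranking were Ctsl with 77.0, the non-coding Gm42418 with 64.1, the metal-binding Mt1 with 32.9 and Fabp5, a fatty acid binding protein, with 26.4. The order differed within the pools, where Bpifa1 had 509.0 in ORFTOC and 28.9 in FTOC, and Gm42418 had 69.9 and 45.9.

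Among 21 genes, the 15 most variable and other genes named above, 2 of 210 pairs had a Spearman correlation of 0.3 or more in size in both pools. Lcn2 and Anxa1 had 0.40 in ORFTOC and 0.36 in FTOC, and Krt14 and Krt15 are given above. These correlations describe cells of 1 library that share a hashtag and a rule.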

How the data were processed

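The authors deposited 1 matrix of raw UMI counts per gene and barcode, made from a 10x 5′ library mapped to mm10 (the matrix header names Cell Ranger 4, the submitters' notes Cell Ranger 6.1.2 and Seurat 4.2.0), with matrices of hashtag counts and T cell receptor contigs. Of 705161 barcodes, 10910 held at least 600 genes. Those with 0.4 to 10% mitochondrial UMIs and at least 80% of at least 10 hashtag UMIs in 1 hashtag, 9349 cells, were assigned to a pool. Barcodes with both hashtags gave 896 known doublets between the pools, and as an alternative the 922 assigned cells with the most of these among their 50 nearest neighbours in 50 components were removed. The rule for members was then applied to raw UMIs.

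UMIs were summed per pool and divided by all UMIs of those cells (CPM). Ratios carry exact binomial intervals, levels Poisson and shares Clopper-Pearson intervals, all at 95%. Counts under 3 were set to 3, and such ratios are lower bounds. Genes with 50 CPM in the higher pool were counted at 2-fold. Shares were also taken after thinning to 5000 UMIs. The ambient profile came from 474940 barcodes of at most 100 UMIs.

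Genes were named from lists by function, and as the 15 with the largest and smallest ratio between pools, the 15 highest over other Epcam cells and the 15 most variable, at 100 CPM. The members and lists were chosen with earlier results of these data known. Alternatives to hashtag purity, cell filters, UMI limits, depth, doublets, sex-linked UMIs, centring, ambient RNA and gene filters were run. Python 3.11.15, numpy 2.4.6, pandas 2.3.3, scipy 1.17.1, scikit-learn 1.9.0 and matplotlib 3.10.9 were used, and the scripts were tested on simulated data. The reads themselves were not analysed here, and 1 gene is not reported here.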

Additional observations from a re-analysis of the deposited data

Results flagged for a closer look

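For 9 genes the members lay at least 1.5-fold over other Epcam cells in one pool and at least 1.5-fold under them in the other. Only genes picked for naming, with 50 CPM in the members of the higher pool, were searched. The number among all genes tested is therefore not known. The value given is the log2 ratio of members over other Epcam cells in ORFTOC minus that in FTOC, and none of these differences was tested, since each pool is 1 sample. Values below 0 were found for the histone genes Hist1h2ap (-1.82) and Hist1h2ae (-1.72), for the replication and mitosis genes Rrm2 (-1.90), Mki67 (-1.38) and Top2a (-1.29), and for the lipid carrier Apoe (-1.66). For these the members of ORFTOC were under the other Epcam cells of their pool and the members of FTOC over them. Values above 0 were found for the cornified envelope gene Sprr1a (1.43) and the BMP targets Id1 (1.35) and Id3 (1.42). In ORFTOC the direction of Apoe, Mki67, Top2a and Rrm2 depended on the cells compared with. Against other Epcam cells within the Cd3e and Ptprc limits these genes stood at 0.40, 0.37, 0.68 and 0.31. In FTOC Top2a and Rrm2 turned to -0.08 and -0.18 after thinning, and Sprr1a to 0.08 without likely doublets.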

How the results depend on the processing

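Each pool is 1 sample of 2 mixed cultures, so the spread between cultures is unknown, and sex, embryonic stage and fibroblasts differ with the pool. No paired analysis was possible because each pool is 1 sample and the labels give no replicate numbers. The causes of the movements below were not tested. Of 149 ratios between the pools 26 changed sign under at least 1 alternative, of which 6 had an interval that left out 0, and 29 stayed within their interval in all. Of 92 ratios of members over other Epcam cells 17 changed sign, all with such intervals, and 10 stayed.

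Members as a share of ORFTOC Epcam cells were 20.2% with limits of 3 UMIs of Ccl21a and Krt5, 14.3% with 10, 20.2% without likely doublets and 24.8% with no upper limit on Psmb11, Aire and Aqp3. The share of FTOC Epcam cells was 12.3% with 90% hashtag purity, 6.94% with 10 UMIs, 12.4% without doublets and 11.9% with no upper limit. The ORFTOC share of members was 50.9% among cells with Xist and no Y-linked UMI. Against 81 genes at least 2-fold higher in ORFTOC there were 124 after thinning, 282 at 10 CPM and 23 at 200 CPM. Against 18 lower there were 28 with 10 UMIs, 66 after thinning, 38 with Xist and no Y-linked UMI, 165 at 10 CPM, 3 at 200 CPM, and 37 without the 5% of cells with the most UMIs of a gene, which was chosen after seeing the data.

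Among ratios between the pools whose interval included 0, Tnfrsf11a (-0.36), Ltbr (0.42), Relb (-0.03) and Fst (-0.27) turned after thinning. Among those whose interval left out 0, the sign changed for Wfdc18 (-0.02), Fabp5 (0.12) and Nqo1 (0.07) after thinning, Gm42418 (-0.01) and Saa3 (-0.38) with Xist and no Y-linked UMI, Fabp5 (0.13) with no upper limit, and Wfdc2 with 10 UMIs (-0.05) and without the highest cells (-0.26). In ORFTOC the ratio of members over other Epcam cells changed sign with no upper limit for Krt8 (0.20), Krt18 (0.35), Prss16 (0.75), Ccl25 (0.66) and Tbata (0.89). It did so within the Cd3e and Ptprc limits for Foxn1 (-0.06), Apoe (0.40), Mki67 (0.37), Top2a (0.68) and Rrm2 (0.31), and after thinning for Apoe (0.37). In FTOC it did so after thinning for Krt18 (0.05), Top2a (-0.08), Rrm2 (-0.18), Tbata (1.24), Cd74 (0.02) and H2-Aa (0.07), with cells weighted equally for Krt18 (0.08), Tbata (0.39), Cd74 (0.17) and H2-Aa (0.16), with no upper limit for Tbata (0.54), Cd74 (0.05) and H2-Aa (0.04), and without doublets for Sprr1a (0.08).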

Other observations

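Some acute phase and barrier genes were higher in ORFTOC members, in part through few cells. Lcn2, which binds bacterial iron carriers, stood at 1025 CPM in ORFTOC members against 507.8 in FTOC members, a log2 ratio of 1.01 (0.90 to 1.12) that was 0.79 without the 5% of cells that held most of it. C3, the central complement component, stood at 336.6 and 104.6 CPM, a ratio of 1.69 (1.45 to 1.93), and 1.72 without such cells. In other Epcam cells C3 stood at 512.6 and 109.8 CPM, so for this gene the pools differed outside the members as well. Of the 14 acute phase genes 5 reached 50 CPM, of which Lcn2, C3, Ccl11 and Saa3 were at least 2-fold higher in ORFTOC, a median of 1.69. Ccl11 and Saa3 reached that level in ORFTOC alone, which raises this median. The share at least 2-fold higher was 2.38% over all genes tested. All Saa3 UMIs of ORFTOC members were in 17 cells, and its ratio of 4.74 turned to -0.38 in members with Xist and no Y-linked UMI. Sprr1a, the one cornified gene of 14 at this level, had a ratio of 1.29. The 3 airway genes at this level had a median of 4.13 and the 3 mesenchymal genes one of 4.88, both with the reads in few cells as given above. Pigr and Col1a2 of these lists were read in 1 FTOC member each and reached 50 CPM in ORFTOC alone. These medians therefore follow in part from the filter on the higher pool.

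Stress and metabolic genes showed little difference between the pools. None of the 14 measured stress genes, 10 hypoxia genes and 4 iron and metal genes differed 2-fold, with medians of 0.12, -0.17 and 0.15. Of 7 antioxidant genes Cbr3, a carbonyl reductase, was at least 2-fold higher in ORFTOC, with a log2 ratio of 1.29 that was 0.71 after thinning, and the median was 0.02. Of the 16 transcription factors known from TECs Id1 and Id3 were, with a median of 0.03. Genes of early medullary cells had a median of -0.20 over 12 genes, of which the matrix gene Dcn, also read in fibroblasts, was at least 2-fold higher in ORFTOC. In ORFTOC 17 members held 92.5% of the Dcn UMIs, and its ratio of 2.82 was 1.84 without the highest cells of each pool. Cell junction genes had a median of 0.08 over 11 genes without a 2-fold difference. No gene of the tuft, ionocyte and ciliated, thymocyte, macrophage, endothelial, parathyroid or erythroid lists reached 50 CPM in members. Pthlh, which encodes parathyroid hormone-related protein, stood at 96.3 and 109.8 CPM and lay over other Epcam cells by 1.80 and 1.68 on the log2 scale. This gene was chosen after its values were seen.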
